A study of Mus musculus with 46 samples.

Results

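PTU-treated hearts of HrDR5 mutant mice were compared with untreated hearts of the same mutant, 3 libraries against 3, out of 22 heart libraries and 46 libraries in all. The 6 libraries were chosen by their labels alone. The mutant mice carried the allele HrDR5 on both chromosomes (HrDR5/DR5); the study's title describes a deletion of a single nucleotide that alters how the hairless gene, Hr, responds to thyroid hormone. The mice were adults. Untreated mice are labelled euthyroid, and PTU mice ate low-iodine food with propylthiouracil (PTU) for 15 days and are labelled hypothyroid. Both mutant groups were homozygous for the allele, so the allele itself is compared only where wild-type hearts, 4 untreated and 4 with PTU, are set beside them. The remaining heart libraries, wild-type and mutant, came from PTU mice that were then given thyroid hormone. They are not compared here, but they entered the fit and its estimate of the spread. The sources used here do not say whether the replicates came from separate cages or days. The p-values therefore measure the spread between replicates over all 22 heart libraries, which may be technical in part.

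Thyroid hormone acts through nuclear receptors that sit on DNA and turn target genes up or down according to whether hormone is bound. PTU blocks the synthesis of the hormone in the thyroid gland. In the rodent heart the hormone keeps the fast alpha myosin heavy chain (Myh6) on and the slow beta chain (Myh7) off. Hr encodes a nuclear corepressor that binds the thyroid hormone receptor, and Hr is itself a known target of the hormone.

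The 6 mutant libraries held 3269806 to 11901261 counts in genes, and the shallowest was untreated replicate 2. In that library 23.93% of alignments lay outside annotated genes, against 3.364% to 5.626% in the other 5. The mitochondrial gene mt-Nd6 took 7.689% of its gene counts, against 0.0203% to 0.232%. Its log2 levels correlated with those of the other 5 libraries at r = 0.875 to 0.928 across genes, while those 5 correlated with each other at 0.942 to 0.976. The 10 markers of ventricular cardiomyocytes were detected, with a summed level of 58090 CPM (a gene's counts scaled to the size of its library) or more in every library. PTU replicate 3 also held atrial genes, with 10 atrial markers summing to 2774 CPM against 608.5 to 859 in the other 5, and liver markers summing to 27.5 CPM against 0 to 1.97. Xist, expressed from the inactive X chromosome, stood at 131.7, 0 and 67.6 CPM in untreated 1 to 3 and at 0.168, 0 and 229.8 CPM in PTU 1 to 3. The Y-linked Ddx3y stood at 0, 76.2 and 0 CPM and at 99.4, 119.7 and 0 CPM in the same order, so the libraries with Y-linked RNA were untreated 2, PTU 1 and PTU 2. The part of these differences between libraries in the results was not tested.

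PTU changed the level of 1952 of 14156 genes tested in mutant heart (13.8%; edgeR's quasi-likelihood test, adjusted p below 0.05), 884 higher (6.24%) and 1068 lower (7.54%). Without untreated replicate 2 the count was 85 (0.59%; 0.243% higher and 0.347% lower), and without PTU replicate 2 it was 115 (0.794%). Leaving out untreated 1, untreated 3, PTU 1 or PTU 3 gave 3163, 831, 1153 and 666 calls. Untreated replicate 2 was the highest or the lowest of the 6 libraries in 1539 of the 1952 called genes (78.8%). The same share over all genes tested was not taken, so this one does not set the called genes apart. In the fit without untreated replicate 2, 730 genes had an adjusted p below 0.1. The description therefore turns on the 82 genes (0.579%) called both with and without untreated replicate 2. Of these, 32 were higher (0.226%) and 50 lower (0.353%) with PTU. A gene is said below to have held where it was called both with and without that library. Leaving it out also leaves no untreated library with RNA of the Y-linked Ddx3y, which PTU 1 and PTU 2 held. The part of this in which genes held was not tested. The 2 groups of libraries did not overlap in 80 of the 82, against 35.4% of all genes tested, and Hr and B430219N15Rik were the 2 that overlapped. The 82 were chosen by tests on these same libraries, so their separation is a description and no further support. Of all 1952 called genes, 1826 did not overlap. Of the 82, 68 (0.48% of genes tested) were called in every fit that left out 1 of the 6 libraries. GENCODE M21 has an overlapping gene on the opposite strand for 26 of the 82 and for 28.1% of all genes tested. Reads of such pairs cannot be told apart without strand. Among the 26, of the genes below, are Ldhd, Fam131a, Pltp, Cdkn1c, Psmb8, Tap1, Irf1, Csf1r, Folr2, H2-Q4, Acadvl, Ednra, Pptc7 and Larp4.

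**Figure D1:**
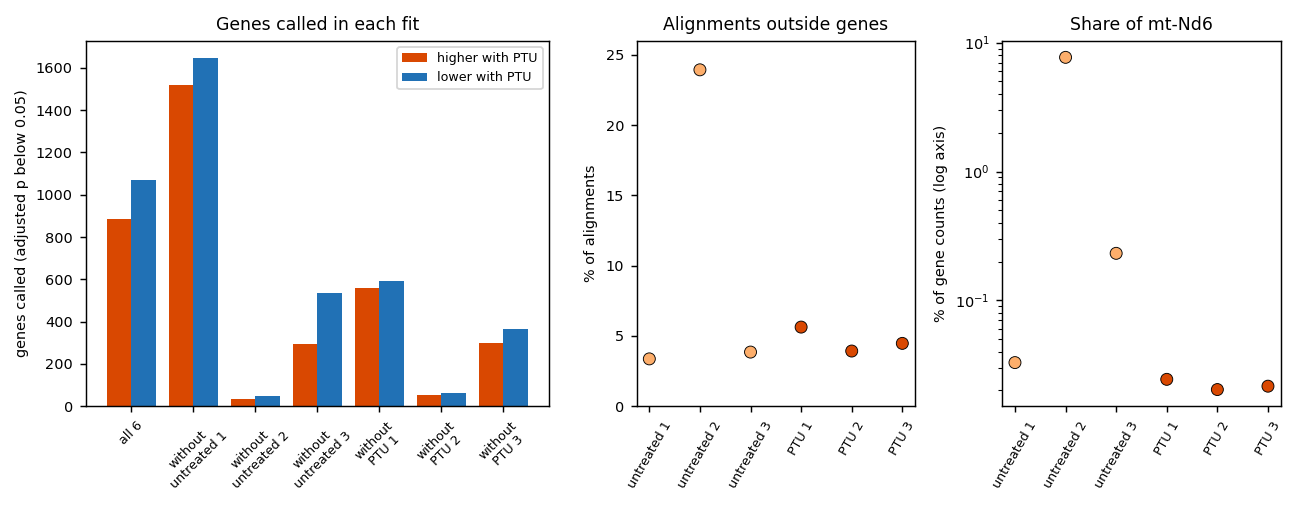
Left, genes called higher (orange) and lower (blue) with PTU in mutant heart, in the fit of all libraries and in the 6 fits that leave out 1 mutant library; middle, percentage of alignments outside genes; right, percentage of gene counts in mt-Nd6 on a log axis, untreated libraries pale and PTU libraries dark. The count of calls runs from 85 without untreated 2 to 3163 without untreated 1, and untreated 2 stands apart in both library measures.

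Hr, the gene that carries the allele, stood at 5.33, 3.13 and 18.8 CPM in untreated replicates 1 to 3 and at 3.37, 2.78 and 1.37 CPM in PTU replicates 1 to 3. The groups overlapped, because untreated 2 lay below PTU 1, and untreated 3 stood well above the rest. Hr fell by 1.97 ± 0.435 on the log2 scale (SE, adjusted p = 0.00949). The call was lost without untreated 3, where the change was -0.86 (adjusted p = 0.159), and without PTU 2 (-2.02, adjusted p = 0.054). In wild-type hearts the 4 untreated libraries lay between 15.4 and 16.3 CPM and the 4 PTU libraries between 1.37 and 3.68 CPM, so 2 of the 3 untreated mutant libraries lay below every untreated wild-type library. The PTU response of Hr was not called different between the genotypes (0.92 ± 0.561 on the log2 scale, mutant minus wild type, adjusted p = 0.431).

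**Figure D2:**
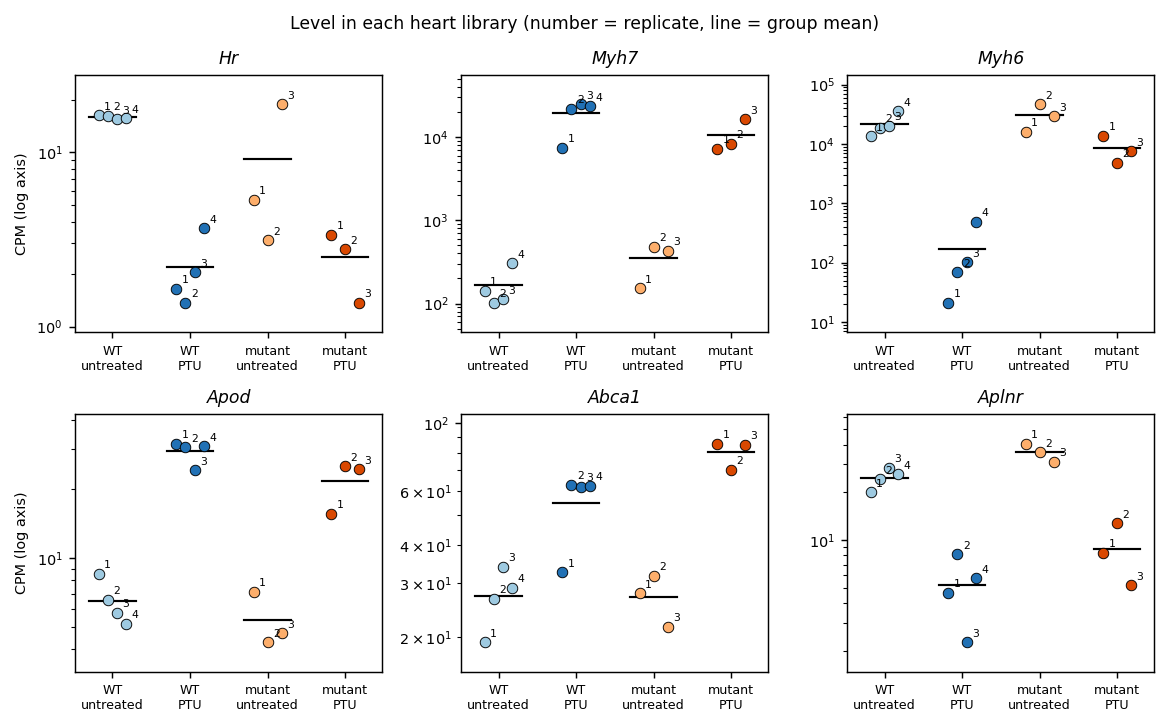
CPM on log axes for Hr, Myh7, Myh6, Apod, Abca1 and Aplnr in each wild-type (blue) and mutant (orange) heart library, untreated pale and PTU dark, with the replicate number beside each point and a line at the group mean. Myh7 is higher with PTU in both genotypes, while Myh6 lies between 4875 and 13710 CPM in the 3 mutant PTU libraries and between 21.2 and 488.5 CPM in the 4 wild-type PTU libraries.

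Myh7 rose in mutant heart, while Myh6 kept a high level in all 3 PTU libraries. Myh7, the slow beta chain, stood at 152.7, 482.5 and 431.8 CPM untreated and at 7268, 8313 and 16280 CPM with PTU. It was 29.9-fold higher (log2 4.90 ± 0.517, adjusted p = 3.1e-05) and was called in all 6 fits that left out a library, with an adjusted p of at most 0.000843. Myh6, the fast alpha chain, stood at 16090, 46670 and 29510 CPM untreated and at 13710, 4875 and 7473 CPM with PTU. The groups did not overlap, but the log2 change of -1.82 ± 0.668 did not pass the test (adjusted p = 0.0674), and without untreated 2 it was -1.38 (adjusted p = 0.265). In wild-type hearts Myh6 lay between 13430 and 35810 CPM untreated and stood at 21.2, 69.8, 101.5 and 488.5 CPM with PTU, a log2 change of -7.02 ± 0.73 (adjusted p = 2.4e-06). The genotype difference was called for Myh6 (5.19 ± 0.914, adjusted p = 0.0123) and not for Myh7 (-1.97 ± 0.587, adjusted p = 0.119). GENCODE M21 annotates genes on the opposite strand of both, and the strand setting of the counting is not given in the sources used here. Whether reads of those partners entered the counts of Myh6 and Myh7 is therefore not known.

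The Myh6 promoter is shown because its gene carries the genotype difference above and because the window holds a direct repeat of the kind that thyroid hormone receptors bind (2 copies of AGGNNA with 4 bases between them). It runs from 250 bases before to 50 after the RefSeq start site, chr14:54966558-54966857 on the minus strand of GRCm38.p6, and is printed 5′ to 3′. Capitals mark a match to that repeat on the opposite strand of the window, whose first printed base lies 120 bases before the start. On either strand 2.55% of the 32851 promoter windows in the table hold such a match, which is a description of letters and not of binding. The counts were made on GRCm39, and no coordinate is taken from them.
Myh6: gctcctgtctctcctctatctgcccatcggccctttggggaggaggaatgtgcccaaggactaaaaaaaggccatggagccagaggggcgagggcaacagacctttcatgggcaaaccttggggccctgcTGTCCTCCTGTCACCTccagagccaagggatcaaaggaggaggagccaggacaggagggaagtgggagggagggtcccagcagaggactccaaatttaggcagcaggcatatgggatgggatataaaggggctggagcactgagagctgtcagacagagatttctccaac

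None of the sarcomere calls other than Myh7 held without untreated 2. Of 7 myosin heavy chain genes the other one called was Myh14, a nonmuscle chain, at 52.3, 344.1 and 116 CPM untreated and 35.6, 33.6 and 43 CPM with PTU (log2 -2.18 ± 0.516, adjusted p = 0.0125); the groups did not overlap, untreated 2 was far above the rest, and the adjusted p without untreated 2 was 0.149. Of 9 myosin light chain and light chain kinase genes Mylk4, a kinase gene, was called higher, at 155.2, 217.4 and 237.4 CPM untreated and 523.9, 489.2 and 537.1 CPM with PTU (log2 1.35 ± 0.365, adjusted p = 0.0227, and 0.0859 without untreated 2), without overlap. The atrial light chains Myl7 and Myl4 stood at 258.7 and 376.9 CPM in PTU 3, the library with atrial markers, and at no more than 2.78 and 6.72 CPM in the other 5, and neither was called. Of 13 troponin, tropomyosin and related thin filament genes 1 was called higher (7.69%) and 5 lower (38.5%). Over all genes tested the shares were 6.24% and 7.54%. The median log2 change was -0.75 in the list and -0.01 over all genes tested. Tnni1, the slow skeletal and fetal inhibitory troponin, stood at 0.213, 0 and 0.416 CPM untreated and at 2.44, 1.16 and 5.89 CPM with PTU (log2 3.49 ± 1.06, adjusted p = 0.0344). Its groups did not overlap, and its adjusted p without untreated 2 was 0.123. Tpm1, the main cardiac tropomyosin, stood at 9144, 11640 and 8901 CPM and at 4403, 3708 and 4220 CPM (log2 -1.27 ± 0.255, adjusted p = 0.00756), also without overlap, and reached 0.0514 without untreated 2. Tnni3, Tnnc1, Tnnt1 and Tpm2 were the other 4 called lower. Of 25 sarcomeric actin and scaffold genes, 1 was called higher and 4 lower, led by Csrp3, a muscle LIM protein, at 1075, 1483 and 1100 CPM untreated and 644.3, 648 and 619.9 CPM with PTU (log2 -0.94 ± 0.205, adjusted p = 0.00933, and 0.0728 without untreated 2).

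Heart genes known to follow thyroid hormone moved in part. Of 9 genes known to fall with the hormone, 5 were called higher with PTU (55.6%, against 6.24% of all genes tested) and none lower. The median log2 change of the 9 was 0.80. The 5 were Myh7 and Tnni1 above, Slc8a1, Kcne1 and Pln, and Myh7 was the one called without untreated 2. Slc8a1, the sodium-calcium exchanger, stood at 192.8, 177.1 and 258.1 CPM untreated and at 454.9, 482.7 and 591.9 CPM with PTU (log2 1.28 ± 0.251, adjusted p = 0.00648, and 0.0514 without untreated 2). Every PTU library lay above every untreated one. Pln, the inhibitor of the sarcoplasmic calcium pump, stood at 7254, 2983 and 5196 CPM and at 7158, 10550 and 9099 CPM (log2 0.80 ± 0.259, adjusted p = 0.0438), and the groups overlapped. The pump itself, Atp2a2, stood at 7331, 7393 and 11270 CPM and at 8631, 8587 and 7760 CPM and was not called (log2 -0.06 ± 0.283, adjusted p = 0.914).

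Of 19 genes known to rise with the hormone, 4 were called lower with PTU (21.1%), among them Hr, Hcn2 and Ucp2, and 1 higher (Atp1b1). Over all genes tested 7.54% were called lower. The median log2 change of the 19 was -0.44. Hcn2, a pacemaker channel, stood at 20.7, 44.2 and 21.5 CPM untreated and at 12.8, 6.49 and 5.89 CPM with PTU. It fell by 1.72 ± 0.297 on the log2 scale (adjusted p = 0.0036), without overlap, and was called in all 6 fits that left out a library. Klf9, a transcription factor that responds directly to the hormone, stood at 297.1, 84.1 and 143.6 CPM and at 288.8, 281 and 250.1 CPM and was not called (log2 0.64 ± 0.387, adjusted p = 0.266). The median over the same 19 genes was -0.76 in wild type, where 8 were called lower.

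Of 20 genes for receptors, cofactors, deiodinases and transporters of the hormone 2 were called higher and 2 lower (10% each). Over all genes tested the shares were 6.24% and 7.54%. The median log2 change was 0.07 in the list, and Hr alone was also called without untreated 2. Thrb, the beta receptor, stood at 17.8, 9.77 and 17.3 CPM untreated and at 28.9, 29.2 and 26.8 CPM with PTU, without overlap (log2 0.87 ± 0.244, adjusted p = 0.0255, and 0.126 without untreated 2). Thra, the alpha receptor, stood at 56.6, 108.3 and 81.8 CPM and at 49.1, 47.9 and 59.7 CPM and was not called (log2 -0.64 ± 0.222, adjusted p = 0.0537). Dio2, which activates the hormone, stood at 1.28, 1.17 and 1.35 CPM and at 2.27, 4.06 and 2.55 CPM; the groups did not overlap, but the change was not called (log2 1.18 ± 0.484, adjusted p = 0.0997).

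Cd74, H2-Ab1, H2-Eb1 and H2-Aa, 4 members of the macrophage list that serve antigen presentation by class II molecules, fell with PTU and held. Cd74, the invariant chain that escorts class II molecules, stood at 145.1, 140.7 and 105.4 CPM untreated and at 43.8, 41.4 and 42.4 CPM with PTU. It fell from 130.4 ± 21.8 to 42.5 ± 1.2 CPM (SD, n = 3 each), a log2 change of -1.62 ± 0.218 (SE, adjusted p = 0.000589), and the adjusted p was at most 0.00835 in the 6 fits that left out a library. H2-Ab1, a class II beta chain, stood at 39.2, 57.1 and 41.6 CPM and at 12.6, 13.6 and 13.5 CPM (log2 -1.78 ± 0.269, adjusted p = 0.00163). H2-Eb1, another beta chain, stood at 38.2, 48.1 and 40.2 CPM and at 12.4, 11.6 and 13 CPM (log2 -1.76 ± 0.295, adjusted p = 0.00348). H2-Aa, an alpha chain named after its values were seen, stood at 52.4, 28.2 and 36 CPM and at 17.7, 16.8 and 17.3 CPM (log2 -1.19 ± 0.259, adjusted p = 0.00909). In each of these genes the 3 PTU libraries lay close together and below all 3 untreated ones, and groups did not overlap in 35.4% of all genes tested. The genes were picked from those called in these same libraries, so their separation is a description. The changes in wild type were -0.53 for Cd74, -0.59 for H2-Ab1, -0.56 for H2-Eb1 and -0.37 for H2-Aa, none of them called, and the difference between the genotypes was not called for Cd74 (adjusted p = 0.0805), H2-Ab1 (adjusted p = 0.113) or H2-Eb1 (adjusted p = 0.139).

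These genes belong to the list of 21 macrophage markers, of which 12 were called lower (57.1%), none higher and 9 were not called. Over all genes tested 7.54% were called lower. The median log2 change of the 21 was -1.08 (-0.93 without untreated 2), and 19 of the 21 changes were below 0. Of the 12, 5 held without untreated 2: the 4 class II genes and Csf1r, the receptor for the growth factor that maintains macrophages. Csf1r stood at 33.8, 34 and 25.2 CPM untreated and at 15.2, 13.6 and 12.7 CPM with PTU (log2 -1.16 ± 0.203, adjusted p = 0.00424), and it was also called lower in wild type (-0.70, adjusted p = 0.0144). Cx3cr1, a chemokine receptor of resident macrophages, stood at 5.55, 61.4 and 3.75 CPM and at 2.27, 0.927 and 1.67 CPM. Its call was lost without untreated 2 (adjusted p = 0.0514), which alone was far above the rest. Not every marker in the list fell. Lyve1 had 239, 25 and 126 raw counts untreated and 382, 229 and 257 with PTU, and it was not called. Mrc1 had 302, 35 and 206 raw counts untreated and 380, 203 and 233 with PTU. These raw counts come from libraries of unlike depth, of which untreated 2 was the shallowest. Folr2, a folate receptor of resident macrophages that is not in the list and was picked after its values were seen, stood at 10.2, 5.87 and 7.91 CPM and at 2.86, 3.24 and 2.84 CPM (log2 -1.47 ± 0.254, adjusted p = 0.0036, and 0.00688 without untreated 2). The 21 markers summed to 536.5 to 810.1 CPM untreated and 296.6 to 349.7 CPM with PTU, and none of them was at 0 in all 6 libraries. In whole tissue, fewer cells of a type and less RNA per cell cannot be told apart.

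Summed markers of other cell types were also measured, and their part in the changes above was not tested. Over all genes tested 6.24% were called higher and 7.54% lower. The 10 ventricular cardiomyocyte markers summed to 74750 to 118100 CPM untreated and 58090 to 66680 CPM with PTU, with 1 called higher and 2 lower and none held. The 15 endothelial markers summed to 1910 to 2621 CPM untreated and 1557 to 1834 CPM with PTU, with 3 called lower and none of these held without untreated 2. The 10 fibroblast markers summed to 1828 to 2805 and 1474 to 1676 CPM, with 4 called lower and none held. The 12 smooth muscle and pericyte markers summed to 1366 to 1665 and 1389 to 1541 CPM, with 3 called lower, and Vtn held; Vtn, vitronectin, a pericyte marker, stood at 29.5, 34.8 and 19.3 CPM and at 11.3, 10.3 and 11.1 CPM (log2 -1.33 ± 0.254, adjusted p = 0.00621, and 0.0491 without untreated 2). The 16 B and T lymphocyte markers summed to 12.1 to 14.7 and 7.18 to 11.7 CPM. Adipocyte markers summed to 582.7 to 698.2 and 423.1 to 450.2 CPM, and skeletal muscle markers to 1685 to 2477 and 1431 to 1577 CPM. Nearly all of the adipocyte sum was Fabp4, also an endothelial marker, with 6194 counts in untreated 1 against 186 for Cidea, the next. Of 7 adipocyte markers tested 2 changed downward, and the median log2 change was 1.01. Nearly all of the skeletal muscle sum was Ckm, with 15745 counts in untreated 1 against 18 for Tnni2, the next. These sums therefore follow single genes and do not measure the cell types. The sums did not overlap between the groups for macrophages, ventricular cardiomyocytes, endothelial cells, fibroblasts, lymphocytes, adipocytes and skeletal muscle. They overlapped for smooth muscle and pericytes. For fibroblasts the fall was not shared by all markers. Gsn had 9853, 5237 and 10678 raw counts untreated and 6503, 4837 and 6807 with PTU. Dcn had 6410, 468 and 3214 untreated and 7109, 5483 and 6947 with PTU, in libraries of unlike depth. The median log2 change of the 10 fibroblast markers was -0.15, and 7 changes were below 0. Of the 12 markers of neutrophils and mast cells Mpo, Elane, Ly6g, Ngp and Camp were at 0 in all 6 libraries.

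Of 39 interferon response genes 15 were called lower, none higher and 24 were not called, against 7.54% of all genes called lower, with a median log2 change of -0.67 (-0.69 without untreated 2), and 37 of the 39 changes were below 0, against 7217 of 14156 over all genes tested. Those held without untreated 2 were Irf7, Psmb8, Ifit3, Irf1 and Tap1. Irf7, the transcription factor that amplifies the response, stood at 10.8, 8.99 and 10.1 CPM untreated and at 3.2, 2.9 and 2.45 CPM with PTU (log2 -1.81 ± 0.293, adjusted p = 0.00308). Ifit3, an interferon-induced antiviral protein, stood at 6.93, 10.6 and 8.64 CPM and at 2.61, 2.78 and 2.84 CPM (log2 -1.63 ± 0.315, adjusted p = 0.00634). In both, the groups were well apart. Irf1, an interferon-gamma-induced factor, stood at 22.9, 20.3 and 24.1 CPM and at 14.1, 11 and 10.1 CPM (log2 -0.94 ± 0.198, adjusted p = 0.00819). Psmb8, a subunit of the immunoproteasome that cuts peptides for class I molecules, stood at 13.2, 25 and 19.2 CPM and at 7.99, 5.68 and 6.57 CPM (log2 -1.46 ± 0.278, adjusted p = 0.00621). Tap1, which carries those peptides, stood at 7.46, 10.6 and 16.8 CPM and at 5.97, 3.59 and 4.51 CPM (log2 -1.31 ± 0.29, adjusted p = 0.00968), and for it the change in wild type was 0.00 (adjusted p = 0.996; genotype difference adjusted p = 0.113). In wild type 11 of the 39 were called lower, with a median of -0.52, among them Irf7 (-0.79) and Ifit3 (-1.41).

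Class I genes were among the 82 as well and were picked after their values were seen, except H2-Q6. H2-D1, a classical class I chain, stood at 108.4, 139.2 and 140.4 CPM untreated and at 65, 45.9 and 53.8 CPM with PTU (log2 -1.23 ± 0.241, adjusted p = 0.00648). H2-Q4 stood at 22.4, 19.9 and 35.7 CPM and at 12.2, 9.5 and 9.22 CPM (log2 -1.35 ± 0.228, adjusted p = 0.00348). H2-Q6 stood at 1.6, 1.17 and 3.12 CPM and at 0.168, 0.116 and 0.785 CPM (log2 -2.53 ± 0.52, adjusted p = 0.00783). All 3 were lower in each PTU library than in each untreated one. These class I genes are related in sequence, and how reads were placed among them was not tested.

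**Figure D3:**
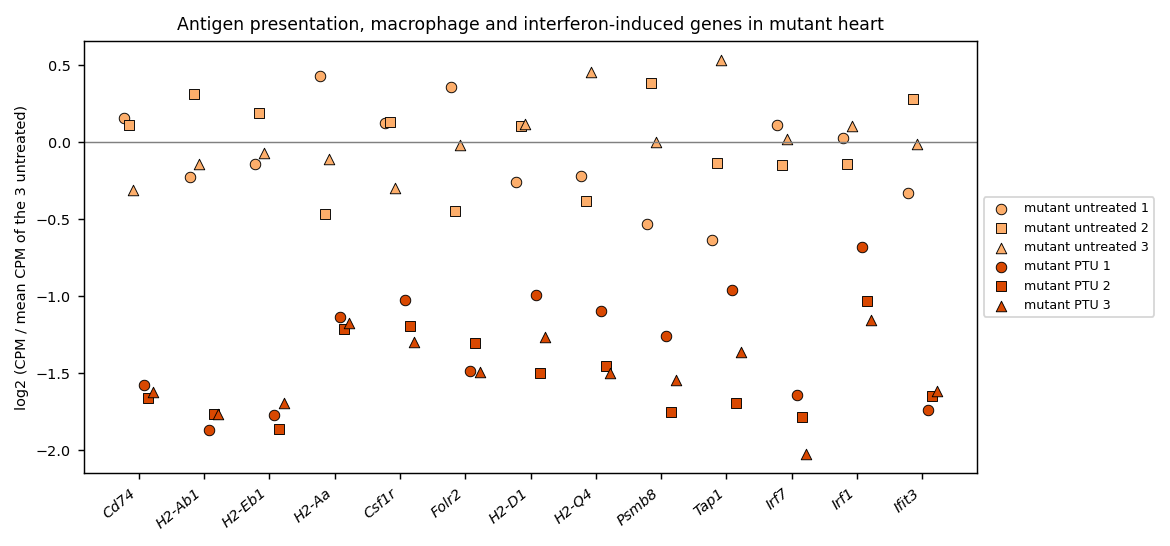
The log2 ratio of CPM in each mutant heart library to the mean CPM of the 3 untreated mutant libraries, for 13 genes of antigen presentation, macrophages and the interferon response, untreated pale and PTU dark, with marker shape for the replicate. In each gene the 3 PTU libraries lie below the 3 untreated libraries, and the groups come closest in Tap1 and Irf1. All 13 genes were picked from those called in these same libraries, so their separation is a description.

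Promoters of 4 of these genes, picked by hand from those that moved together, are shown as examples. Windows with these motifs were not counted among the called genes. A match is a description of letters and not of binding, and its part in the changes was not tested. Each is a RefSeq window of GRCm38.p6 from 250 bases before to 50 after the start, printed 5′ to 3′, and 65 of the 82 genes had one in the table. Capitals in H2-Eb1 (chr17:34305617-34305916, plus strand), H2-Aa (chr17:34287774-34288073, minus strand) and H2-D1 (chr17:35262844-35263143, plus strand) mark the Y box CTGATTGG of major histocompatibility promoters, which 4.1% of the 32851 windows hold on either strand. Capitals in Ifit3 (chr19:34583279-34583578, plus strand) mark 2 matches to GAAA, any 2 bases and GAAA, the core of the interferon-stimulated response element, which 3.44% of windows hold. The Y box begins 62, 51 and 53 bases before the start in H2-Eb1, H2-Aa and H2-D1, on the reverse strand in H2-D1. The matches in Ifit3 begin 156 and 122 bases before the start, on the reverse strand.
H2-Eb1: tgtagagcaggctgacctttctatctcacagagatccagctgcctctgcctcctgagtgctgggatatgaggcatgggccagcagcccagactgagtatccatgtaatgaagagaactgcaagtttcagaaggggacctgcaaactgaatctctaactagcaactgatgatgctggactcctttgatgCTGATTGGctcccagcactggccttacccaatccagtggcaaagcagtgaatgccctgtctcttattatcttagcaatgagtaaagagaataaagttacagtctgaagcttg
H2-Aa: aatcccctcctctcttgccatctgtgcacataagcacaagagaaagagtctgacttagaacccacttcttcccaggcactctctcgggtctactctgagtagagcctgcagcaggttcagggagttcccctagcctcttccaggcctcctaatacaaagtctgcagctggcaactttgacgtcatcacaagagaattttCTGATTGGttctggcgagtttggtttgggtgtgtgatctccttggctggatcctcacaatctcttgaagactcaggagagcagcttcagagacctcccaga
H2-D1: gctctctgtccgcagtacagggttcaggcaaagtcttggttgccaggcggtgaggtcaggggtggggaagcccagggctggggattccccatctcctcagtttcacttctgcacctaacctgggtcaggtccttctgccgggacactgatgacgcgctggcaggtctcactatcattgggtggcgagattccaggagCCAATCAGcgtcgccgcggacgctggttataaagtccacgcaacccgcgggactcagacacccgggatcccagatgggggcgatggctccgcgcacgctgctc
Ifit3: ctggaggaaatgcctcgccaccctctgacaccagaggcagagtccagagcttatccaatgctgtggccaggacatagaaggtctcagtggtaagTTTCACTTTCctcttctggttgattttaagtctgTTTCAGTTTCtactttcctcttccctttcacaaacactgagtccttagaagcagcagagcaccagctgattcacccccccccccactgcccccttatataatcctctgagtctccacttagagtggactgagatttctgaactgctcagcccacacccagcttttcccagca

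Several other genes fell clearly. Aplnr, the apelin receptor, stood at 40.6, 36 and 31.2 CPM untreated and at 8.33, 12.7 and 5.2 CPM with PTU, a 4.12-fold fall (log2 -2.04 ± 0.369, adjusted p = 0.00503), and wild type gave -2.26 (adjusted p = 9.89e-05). Tesc, the calcium-binding protein tescalcin, stood at 63.8, 207.6 and 69.5 CPM and at 27.3, 18 and 19.8 CPM (log2 -2.37 ± 0.364, adjusted p = 0.00204, and -1.61 without untreated 2). Cdkn1c, an inhibitor of cyclin-dependent kinases, stood at 35.6, 48.1 and 16.5 CPM and at 8.75, 8.34 and 8.73 CPM (log2 -1.92 ± 0.324, adjusted p = 0.00348). None of these 3 overlapped between the groups. Arc, an immediate early gene, stood at 2.88, 1.17 and 4.37 CPM and at 1.09, 0.927 and 0.49 CPM (log2 -1.86 ± 0.412, adjusted p = 0.00949), and its call was lost in 2 of the 6 fits that left out a library. Fam131a stood at 11, 19.6 and 13.6 CPM and at 3.37, 2.67 and 5.1 CPM (log2 -1.94 ± 0.319, adjusted p = 0.00329). Pltp, which moves phospholipids between lipoproteins, stood at 44.8, 36.8 and 32.9 CPM and at 13.7, 17.2 and 14.9 CPM (log2 -1.33 ± 0.189, adjusted p = 0.000926). Thy1, a surface protein of stromal and lymphoid cells, stood at 16.5, 16 and 11.8 CPM and at 6.31, 5.33 and 5.2 CPM (log2 -1.38 ± 0.227, adjusted p = 0.00329). In Fam131a, Pltp and Thy1 the groups stood apart too, and all 3 were called in every fit.

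mt-Nd6, the gene for a subunit of respiratory complex I, gave the largest fitted fall among the 82, and its values need care. It stood at 370.4, 98300 and 1986 CPM untreated and at 244.3, 243.3 and 224.2 CPM with PTU. The log2 change was -7.14 ± 1.24 (adjusted p = 0.0036) with all libraries and -2.30 (adjusted p = 0.0474) without untreated 2. The other 14 of 15 mitochondrially encoded genes were not called, and the median over the 15 was 0.11.

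Among the 32 genes that rose, the lipid exporter and carrier genes Abca1 and Apod were prominent. Apod, apolipoprotein D, stood at 7.14, 4.3 and 4.68 CPM untreated and at 15.7, 25.1 and 24.5 CPM with PTU, a 3.91-fold rise (log2 1.97 ± 0.263, adjusted p = 0.000589). Abca1, which exports cholesterol, stood at 27.8, 31.7 and 21.6 CPM and at 85.6, 70.3 and 84.9 CPM, a 3-fold rise (log2 1.58 ± 0.251, adjusted p = 0.00275). Wild type gave 2.18 for Apod (adjusted p = 1.13e-06) and 1.01 for Abca1 (adjusted p = 0.00469). Tmem100, an endothelial membrane protein, stood at 13, 8.99 and 8.64 CPM and at 32.3, 41.7 and 33.1 CPM (log2 1.78 ± 0.247, adjusted p = 0.000707). It was not called in wild type (0.45, adjusted p = 0.23), and the genotype difference of 1.34 had an adjusted p of 0.0518. In all 3 genes the lowest PTU library lay above the highest untreated library.

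Dstn, destrin, which severs actin filaments, stood at 122.5, 54.3 and 80.3 CPM untreated and at 220.8, 250.4 and 258.7 CPM with PTU (log2 1.49 ± 0.265, adjusted p = 0.00471), and wild type gave 1.48. Strip2 stood at 83, 45.7 and 77.4 CPM and at 130.1, 173.4 and 191.6 CPM (log2 1.25 ± 0.216, adjusted p = 0.0036). Pde4d, a phosphodiesterase that breaks down cyclic AMP, stood at 13.1, 12.5 and 10.4 CPM and at 26.8, 27.7 and 28.6 CPM (log2 1.21 ± 0.219, adjusted p = 0.00503). The groups were apart in each. Hsd17b7, an enzyme of cholesterol synthesis, stood at 14.4, 8.21 and 14.9 CPM and at 30.5, 29.3 and 33.7 CPM (log2 1.27 ± 0.206, adjusted p = 0.00324). Bche, butyrylcholinesterase, stood at 24.7, 8.99 and 17.3 CPM and at 40, 50.8 and 46 CPM (log2 1.37 ± 0.266, adjusted p = 0.00648). Ednra, an endothelin receptor picked after its values were seen, stood at 27, 12.9 and 22.8 CPM and at 47.3, 52.5 and 48.7 CPM (log2 1.21 ± 0.233, adjusted p = 0.00632). Kbtbd12, Nme5, Zdhhc21, Nabp1, Alg10b and Mpp7 rose by 1.22 to 1.60 on the log2 scale and were called in every fit.

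A pair of very low genes is given by counts. The predicted gene 2900052N01Rik had no counts in the 3 untreated libraries and 73 counts over the PTU libraries, at least 17.1-fold higher when the untreated group is set to 3 counts. Rxfp1, the relaxin receptor, had 3 counts untreated and 114 with PTU, a ratio of 26.7 (95% interval 8.9 to 131, counting error only). Its level in PTU 3 was 8.93 CPM against 0.925 and 1.39 in PTU 1 and 2, and its call was lost without untreated 2 (adjusted p = 0.102).

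Of 38 genes of fatty acid oxidation and uncoupling 9 were called lower (23.7%) and 2 higher (5.26%), against 7.54% and 6.24% over all genes. The median log2 change of the 38 was -0.28, and Acadvl held without untreated 2. Acadvl, the very long chain acyl-CoA dehydrogenase, stood at 535.8, 789.8 and 747.2 CPM untreated and at 330.1, 273.7 and 331.1 CPM with PTU (log2 -1.15 ± 0.193, adjusted p = 0.00348), and it was called lower in wild type too (-0.89, adjusted p = 0.00158). The regulators Ppargc1a and Ppara were the 2 called higher. Ppargc1a, the coactivator of mitochondrial genes, stood at 67.8, 41.1 and 50.3 CPM and at 156.3, 229.2 and 171.9 CPM (log2 1.80 ± 0.419, adjusted p = 0.0116); the groups were apart, and the adjusted p was 0.0783 without untreated 2. Ppara, the fatty acid receptor, named after its values were seen, stood at 8.53, 11.7 and 17.5 CPM and at 35.9, 55.8 and 39.6 CPM (log2 1.79 ± 0.503, adjusted p = 0.0261, and 0.105 without untreated 2). Of 45 nuclear genes of oxidative phosphorylation 9 were called lower (20%) and none higher, with a median of -0.40, and none held without untreated 2. Ldhd, the D-lactate dehydrogenase, fell from 37.5, 48.5 and 49.9 CPM to 18.2, 21.3 and 20.9 CPM (log2 -1.17 ± 0.175, adjusted p = 0.00163) and was called in every fit. Of 33 genes of glycolysis, glycogen and glucose uptake 3 were called in each direction (9.09%, near the shares over all genes), and none held.

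Of 26 genes of cholesterol synthesis and transport 4 were called higher (15.4%) and 6 lower (23.1%), against 6.24% and 7.54% over all genes. Those that rose were the exporters Abca1 and Abcg1 and the enzymes Hsd17b7 and Hmgcs1, and Abca1 and Hsd17b7 held without untreated 2. Hmgcs1 was named after its values were seen. The 6 called lower did not hold; the early enzyme Mvk, mevalonate kinase, was one of them (log2 -1.31 ± 0.327, adjusted p = 0.0155, and 0.0677 without untreated 2).

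Of 38 extracellular matrix genes 11 were called lower (28.9%, against 7.54% of all genes tested) and none higher. The median log2 change of the 38 was -0.46 (-0.31 without untreated 2), and Col6a2 held. Col6a2, a chain of collagen VI, stood at 90.6, 152.1 and 81.1 CPM untreated and at 42.3, 36.2 and 38.4 CPM with PTU (log2 -1.46 ± 0.264, adjusted p = 0.00503, and 0.0474 without untreated 2). Its partner Col6a1 reached an adjusted p of 0.0514 without untreated 2. Col3a1, a fibrillar collagen, stood at 190.6, 224.8 and 120.8 CPM and at 90.2, 66.6 and 61.7 CPM (log2 -1.29 ± 0.299, adjusted p = 0.0112, and 0.0799 without untreated 2). Of 26 cell division genes 7 were called lower (26.9%) and none higher, with a median of -0.88, and none held. Mki67, a marker of dividing cells, stood at 3.95, 5.47 and 3.95 CPM and at 1.26, 0.927 and 1.18 CPM (log2 -1.92 ± 0.588, adjusted p = 0.0353, and 0.124 without untreated 2). None of 41 cytoplasmic ribosomal protein genes was called, with a median of 0.03.

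Of 24 calcium cycling genes 3 were called higher and 2 lower, against 6.24% and 7.54% of all genes tested, and none held without untreated 2. Camk2d, the calcium-dependent kinase of cardiomyocytes, stood at 113.2, 76.2 and 89.5 CPM untreated and at 172.6, 170 and 166.6 CPM with PTU (log2 0.86 ± 0.186, adjusted p = 0.00867, and 0.0622 without untreated 2). Casq1, a calcium store protein, stood at 11.2, 11.7 and 6.24 CPM and at 3.95, 1.97 and 2.35 CPM (log2 -1.76 ± 0.376, adjusted p = 0.00857, and 0.0568). In the potassium channel list 1 of 24 was called higher and 3 lower, and in the list of pacemaker, sodium and calcium channels and connexins 3 of 16 were called lower, of which Hcn2 held. In the list of 33 adrenergic and muscarinic signalling genes 4 were called higher and 1 lower, and Pde4d held. In the list of 20 fetal and stress genes Aplnr was called lower, and Nmrk2, a kinase of the NAD salvage pathway, was called higher at 1.6, 1.17 and 1.77 CPM untreated and 8.25, 6.95 and 4.02 CPM with PTU (log2 2.00 ± 0.585, adjusted p = 0.0302, and 0.114 without untreated 2). Nppa, the atrial peptide, stood at 192.1, 156.4 and 112.7 CPM and at 184.5, 157.7 and 1187 CPM, with the high value in PTU 3, the library that held atrial markers, and was not called (adjusted p = 0.163).

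Wild-type hearts, which share no library with the mutant ones, gave 694 called genes (4.9%, and 1069 genes without wild-type PTU 1), 266 higher (1.88%) and 428 lower (3.02%) with PTU. Of the 266, 231 had a change of the same sign in mutant heart (86.8%), and of the 428, 335 did (78.3%), against 64.4% of all genes tested. In mutant heart 194 of the 694 were called in the same direction and 5 in the opposite one. The median log2 change of the 266 was 1.08 in wild type and 0.56 in mutant, and of the 428 it was -1.15 and -0.51. The genes were chosen by their change in wild type, so these medians are a description and the sizes of the 2 responses cannot be compared through them. Set against the mean of the untreated wild-type libraries, the median of the 266 genes was 0.33, 0.64 and 0.72 in mutant PTU 1 to 3 and -0.06 to 0.10 in the untreated mutant libraries. For the 428 genes it was -0.36, -0.60 and -0.69, against -0.10 to 0.10.

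**Figure D4:**
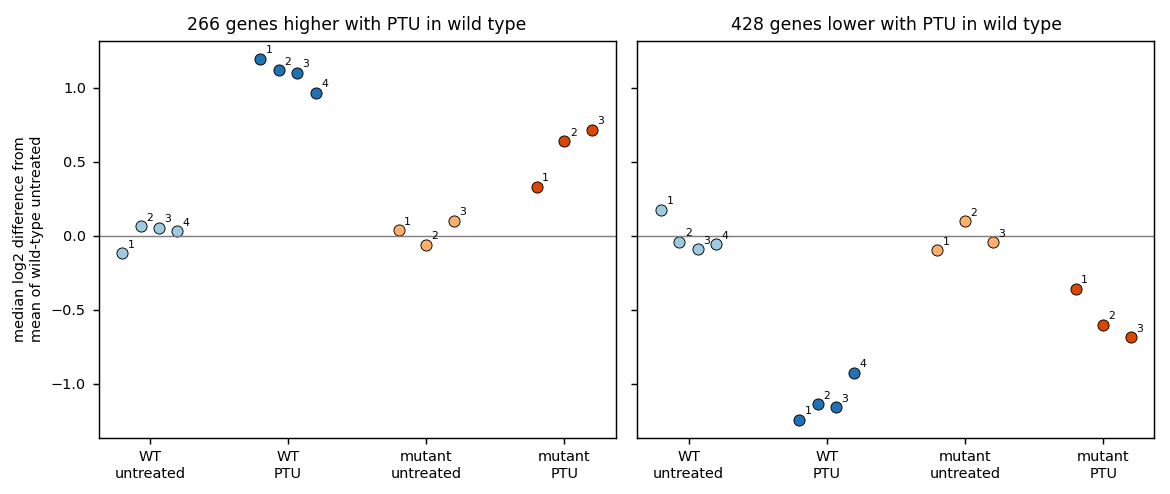
Median log2 difference of each heart library from the mean of the 4 untreated wild-type libraries, over the 266 genes called higher (left) and the 428 called lower (right) with PTU in wild type; points are libraries, numbered by replicate. The genes were chosen by their change in these wild-type libraries, so the heights of the 2 genotypes cannot be compared; the 3 mutant PTU libraries lie above the untreated mutant libraries on the left and below them on the right.

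Of the 82 genes called with and without untreated 2, 78 had a change of the same sign in wild type (95.1%, against 64.4% of all genes tested), and 29 were called there. The difference between the genotypes was called for 82 genes (0.579%), 68 of them with a more positive response in mutant than in wild type and 14 with a more negative one; the 2 sets of 82 share 3 genes, Cnpy3, Pptc7 and Larp4. Without mutant untreated 1 the count for the difference was 721, without mutant untreated 2 or PTU 2 it was 35, without untreated 3 it was 4 and without PTU 1 it was 1. Leaving out wild-type untreated 2, 3 or 4 gave 39, 53 and 127, and leaving out wild-type PTU 2 or 3 gave 37 and 36. Pptc7, a mitochondrial phosphatase, stood at 126.1, 95.4 and 115.4 CPM untreated and at 241.2, 226.7 and 197.7 CPM with PTU (log2 0.98 ± 0.156, adjusted p = 0.00281), and in wild type it changed by -0.06 (genotype difference 1.04 ± 0.205, adjusted p = 0.0178). Larp4, which binds mRNA tails, rose by 1.22 and changed by -0.05 in wild type (adjusted p of the difference 0.0411), and Cnpy3, a chaperone of Toll-like receptors, fell by 1.10 and changed by 0.07 in wild type (0.0255). Both were picked after their values were seen.

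**Figure D5:**
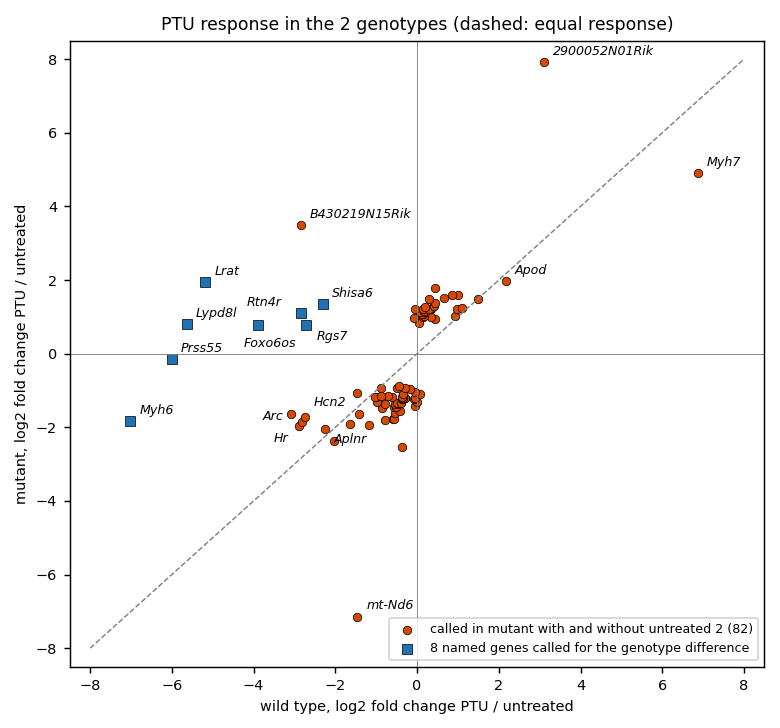
Log2 fold change with PTU in wild-type heart (horizontal) and mutant heart (vertical), for the 82 genes called in mutant with and without untreated 2 (circles) and 8 named genes called for the genotype difference (squares), with the dashed line at equal responses. The 8 squares lie far above the line, Myh6 at -7.02 and -1.82, and 78 of the 82 circles have the same sign in both genotypes.

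The 8 named genes, the largest differences once predicted genes were left out, were all called lower with PTU in wild type (-7.02 to -2.31 on the log2 scale), and none of them was called in mutant. Another 7 predicted genes, at 3.87 to 6.51 on the log2 scale, lay above the smallest of the 8 differences. Foxo6os, a noncoding gene beside Foxo6, stood at 4.59, 3.13 and 4.79 CPM in untreated mutant hearts and at 12.3, 6.6 and 3.24 CPM with PTU, and the groups overlapped. In wild type it lay between 3.84 and 7.43 CPM untreated and between 0.114 and 0.843 CPM with PTU, and the difference of 4.65 ± 0.559 (adjusted p = 0.000313) was called in all 14 fits that left out 1 of the libraries compared. Rtn4r, the Nogo receptor, stood at 4.59, 10.2 and 3.54 CPM and at 19.2, 10.2 and 5 CPM in mutant, again with overlap, while wild type went from 4.89 to 11.8 CPM untreated to 0.523 to 3.06 CPM with PTU (difference 3.94 ± 0.718, adjusted p = 0.0123). The Myh6 difference was called in 12 of the 14 fits, with an adjusted p of up to 0.0664. Of the rest, Lypd8l, Rgs7 and Rtn4r were called in 12 fits, Shisa6 in 10, Lrat in 7 and Prss55 in 4.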

How the data were processed

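Total RNA from heart was made into libraries with the CORALL V2 kit from 1 ug of RNA, per the labels' protocols, and reads were aligned and counted with tools listed, without versions, in the submitters' processing notes (Bowtie2 and HTSeq, build GRCm39). The authors deposited raw read counts per gene, 1 file per library, for 57010 genes; the strand setting is not given in the sources used here. Rows that name no gene were left out of totals and tests; in the 6 mutant libraries, 3.364% to 23.93% of alignments lay outside genes and 23.63% to 35.89% were not uniquely placed. The 24 striatum libraries were not used.

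All 22 heart libraries were fitted together with edgeR 4.0.16 in R 4.3.3 (TMM scaling, quasi-likelihood F test, 1 coefficient per group), on the 14156 genes that passed edgeR's filter on low counts (minimum count 10). P-values are two-sided with Benjamini-Hochberg adjustment over all genes tested, and calls have an adjusted p below 0.05. CPM use TMM-scaled library sizes. Standard errors come from the F statistic. Alternatives were DESeq2 1.42.0, limma 3.58.1 voom with sample weights, other scaling and filters, fewer libraries, leaving out each library, a replicate block and 3 chosen after seeing the data. The script was tested on simulated data. Replicate numbers deviated together in all 4 wild-type pairs (r = 0.109 to 0.579), so they pair there by the criterion used. Libraries of unlike number reached r = 0.3285 (wild-type untreated 4 with PTU 3), so the pairing is uncertain. The main fit leaves the block out and treats the groups as unpaired. The counts with the block are given with the other alternatives.

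The rule names the tested members of the myosin, troponin and hormone lists. It adds the 14 largest rises and falls called with and without untreated replicate 2 and the 15 of smallest p called in every fit. Up to 5 called members of each other list, the 8 largest genotype differences and the largest changes in wild type are named too. The last are up to 6 genes called only with untreated replicate 2 and mt-Nd6. Predicted genes were left out of the 8 genotype differences too, which the rule had not provided for. Myh6, Foxo6os, Rtn4r, Shisa6 and Rgs7 therefore stand among the 8 in place of predicted genes, and Myh6 is also named as a myosin. Genes named outside this rule, after their values were seen, are H2-Aa, H2-D1, H2-Q4, Folr2, Ednra, Ppara, Hmgcs1, Larp4, Cnpy3, Xist, Ddx3y, B430219N15Rik and 2900052N01Rik. The members and lists were chosen with earlier results of these data known. Opposite-strand genes (overlap of at least 50 bases) are from GENCODE M21, and promoters from RefSeq on GRCm38.p6. Intervals and floors (3 counts) cover counting error only. Some results that fall under the rule are not reported here.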

Additional observations from a re-analysis of the deposited data

Results flagged for a closer look

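The response to PTU differed between mutant and wild-type heart, by a test of the difference itself, in 82 genes. With predicted genes left out, the 8 largest differences were those of Lrat (7.11 on the log2 scale, mutant minus wild type), Lypd8l (6.43), Prss55 (5.85), Myh6 (5.19), Foxo6os (4.65), Rtn4r (3.94), Shisa6 (3.66) and Rgs7 (3.50). Lrat, the enzyme that stores retinol as esters, stood at 1.92, 1.96 and 0 CPM in untreated mutant hearts and at 9.25, 2.2 and 0.981 CPM with PTU, and Prss55, a serine protease, at 0.96, 0 and 0.208 CPM and at 0.925, 0.232 and 0.0981 CPM. In wild type with PTU, Prss55 was listed at 0 in all 4 libraries, Lrat in 3 of 4 and Lypd8l in 2 of 4, so their fitted differences depend on the small count added by the fit and are no measure of fold. Over the 14 fits that left out 1 library, the adjusted p ran from 0.0133 to 0.136 for Lrat and from 0.00976 to 0.236 for Prss55, against 9.4e-06 to 0.00244 for Foxo6os.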

How the results depend on the processing

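The cause of these shifts was not tested. The mutant count of 1952 became 377 with only the 6 libraries compared, 4377 with voom sample weights, 2545 with DESeq2, 2001 without the filter, 1379 with the share of alignments outside genes as a term, 1380 without genes overlapped on the opposite strand, 11 without untreated 2 and PTU 2 together, and 85 to 3163 with 1 mutant library left out. The share called higher was 45.29%, and 54.47% with no filter and 35.38% without untreated 3. The wild-type count of 694 became 194 with only the libraries compared, 1113 with voom weights, and 483 to 1069 with 1 library left out. The genotype difference count of 82 became 297 with DESeq2, 341 without the filter, 1 with only the libraries compared, 1250 with voom weights, 19 without untreated 2 and PTU 2, and 1 to 721 with 1 library left out. The log2 change of Hr in mutant heart, PTU against untreated, was -1.94 with only the 6 libraries compared (adjusted p = 0.0705) and -2.33 without untreated 2 and PTU 2 (adjusted p = 0.0716), neither called, and -2.29 to -0.86 with 1 library left out. Leaving out both libraries, the term for alignments outside genes and leaving out genes overlapped on the opposite strand were chosen after seeing the data.

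Mutant libraries with the same replicate number did not deviate together (r = -0.15, -0.09 and 0.10), so the numbers were not taken as pairs; with a replicate block the counts were 1993 in mutant, 799 in wild type and 97 for the difference, and Hr changed by -1.88 (adjusted p = 0.0163). In untreated 2, the shallowest library, 3 counts equal 1.17 CPM, against 0.252 to 0.348 CPM in the other 5, so low genes were measured least precisely there.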
